A study of Mus musculus with 36 samples.

Results

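The co-chaperones examined here were 10 mouse genes: Dnajb1, Dnaja1, Dnajb4, Dnajb6 and Dnaja4 of the HSP40 (DNAJ) family, Bag3 and Bag1 of the BAG family, and Chordc1, Stip1 and Ahsa1. The last 3 are neither HSP40 nor BAG proteins but act on HSP90. The members were chosen with earlier results of these data known, so their shares beside those of all genes are a description only. They were taken by gene symbol. A probe set (the group of short array probes that reads 1 transcript) counted if it mapped to exactly 1 of these symbols. This gave 21 of the 34945 probe sets with a single symbol. Each gene is represented by 1 of them, and all 10 members were among the 13981 genes tested, of 18193 genes in all. Total RNA of 36 livers, 1 array per mouse, came from 4 inbred strains labelled SJL, SMJ, DBA and C57, which the series also writes as SJL, SmJ, DBA/2 and C57B6. In each strain, 3 mice were killed 3 h and 3 others 6 h after an abdominal injection of 300 mg/kg acetaminophen, a painkiller that harms the liver at high dose, and 3 more before any dose (0 h). All mice, those of 0 h included, had been fasted overnight, and their ages and sexes were not given in the sources used here. Single mice are named as labelled, by strain and number. The series calls SJL resistant to the injury and the other 3 strains sensitive.

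Every array had a trimmed mean of 150, and arrays of the same group correlated at 0.929 to 0.961 across genes. The 6 hepatocyte markers were high in every liver, with albumin (Alb) between 10884 and 28847. No group given vehicle alone was used here at 3 h or 6 h, so hour of day and length of fast cannot be told apart from time since dosing. The ratio of the 3′ to the 5′ actin control probe set, a sign of RNA quality, averaged 1.67 in C57 at 6 h, against 1.64 at 0 h. It was lower at 6 h in the other strains, with 1.45 for SJL, 1.35 for SMJ and 1.44 for DBA, against 1.71, 1.57 and 1.77 at 0 h. Averaged over the strains, 3 of 7 neutrophil markers tested were higher at 6 h than at 0 h. So were 6 of 8 endothelial markers (median log2 change 0.35) and 5 of 6 hepatocyte markers (median 0.38), and in SMJ alone 4 of 6 hepatocyte markers (median 0.70). Among all genes tested, 12.5% were higher as the mean of the strains (median -0.05) and 8.58% in SMJ alone (median -0.04). The summed signal of 8 measured neutrophil markers of 9 averaged 1163 (489 to 2397) in SJL mice at 6 h, against 671 (376 to 964) at 0 h. SMJ mice had 1375 (1027 to 1901) at 6 h, against 200.4 (143 to 267) at 0 h. DBA mice had 729.5 (368 to 943) at 6 h, against 239 (206 to 288) at 0 h, and C57 mice had 895 (758 to 1000.2) at 6 h, against 302 (188 to 434) at 0 h. No measured marker of any list was at 0 on any array. The part of these shifts in the results on the co-chaperones was not tested. In whole liver, fewer cells of a type and less RNA per cell cannot be told apart.

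HSP40 proteins carry a J domain that stimulates the ATPase of HSP70, and they bring unfolded proteins to it. BAG proteins bind the ATPase domain of HSP70 and speed the release of its nucleotide and client. The genes of many of these proteins are switched on by heat shock factor 1 when unfolded or damaged proteins accumulate. In liver, the reactive metabolite of acetaminophen binds covalently to proteins once glutathione runs low.

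As the mean of the 4 strains, 5 of the 10 co-chaperones were higher and 1 was lower at 6 h than at 0 h. Among all genes tested, 12.5% were higher and 20.1% lower in the same comparison. Dnajb1, the main heat-inducible HSP40 of the cytosol, rose 9.6-fold (log2 change 3.26 ± 0.22 SE, limma adjusted p = 9.65e-12). Bag3, which joins HSP70 to small heat shock proteins and to autophagy, rose 3.58-fold (1.84 ± 0.17, adjusted p = 6.06e-09). Dnaja4, a relative of Dnaja1, rose by 0.97 ± 0.22 on the log2 scale (adjusted p = 0.00126). Dnajb4, a relative of Dnajb1, rose by 0.58 ± 0.12 (adjusted p = 0.000297), and Dnaja1, an abundant cytosolic HSP40, by 0.56 ± 0.11 (adjusted p = 0.000178). Ahsa1, the activator of the HSP90 ATPase, was lower, with a log2 change of -0.27 ± 0.07 (adjusted p = 0.00592). That fall rests on the brighter of its 2 probe sets: the dimmer one gave 0.10 ± 0.14 (adjusted p = 0.632), and their mean gave -0.08 (adjusted p = 0.461). The other 4 did not pass. Their log2 changes were 0.07 ± 0.05 for Bag1, 0.06 ± 0.06 for Dnajb6, 0.02 ± 0.10 for Chordc1 and -0.12 ± 0.09 for Stip1, the adaptor that holds HSP70 and HSP90 together. The median change of the 10 members was 0.31, against -0.05 for all genes tested.

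At 3 h, 2 members were higher and 0 lower, where 3.10% and 3.96% of all genes were. Dnajb1 rose by 2.00 ± 0.22 on the log2 scale (adjusted p = 4.09e-07) and Bag3 by 0.74 ± 0.17 (adjusted p = 0.00815). Dnajb4 followed at 0.36 ± 0.12, short of the threshold (adjusted p = 0.057, and between 0.0134 and 0.0464 without any 1 of SJL39, SJL44, SJL48, SMJ56, DBA168 and DBA169). A dim Dnajb4 probe set went the other way and passed, with -0.53 ± 0.16 (adjusted p = 0.0386 over all probe sets). By limma, 3 members had an unadjusted p below the threshold, as did 2727 of 13981 genes. Levels went on changing after 3 h. At 6 h relative to 3 h, 4 members were higher (6.92% of all genes) and 1 lower (9.53%). The further rise was 1.26 ± 0.22 for Dnajb1, 1.10 ± 0.17 for Bag3, 0.79 ± 0.22 for Dnaja4 and 0.35 ± 0.11 for Dnaja1, and Ahsa1 fell by 0.28 ± 0.07 (adjusted p between 8.49e-05 and 0.0248). The call of Dnaja1 ended without SJL45 (adjusted p = 0.0529) or DBA168 (0.0561) and after quantile normalization (0.27, 0.101). That of Ahsa1 ended with the mean of its 2 probe sets (-0.21, 0.0597).

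The sequence just upstream of 4 members is shown because Dnajb1 and Bag3 rose most, while Dnaja1 and Dnajb6 hold adjoining inverted units of a heat shock element before their first start site. The search asked for 2 adjoining units only, not for a whole element. Each sequence is the 250 bases before the most upstream RefSeq start of the gene in build GRCm38.p6, on the plus strand, 5′ to 3′. They lie at chr8:83607925-83608174, chr7:128523333-128523582, chr4:40722218-40722467 and chr5:29735648-29735897, outside the transcript and next to its first exon. Capitals mark GAANNTTC or TTCNNGAA, the 2 ways in which inverted units of a heat shock element can adjoin. Each reads the same on both strands, and in Dnajb6 they overlap.
Dnajb1: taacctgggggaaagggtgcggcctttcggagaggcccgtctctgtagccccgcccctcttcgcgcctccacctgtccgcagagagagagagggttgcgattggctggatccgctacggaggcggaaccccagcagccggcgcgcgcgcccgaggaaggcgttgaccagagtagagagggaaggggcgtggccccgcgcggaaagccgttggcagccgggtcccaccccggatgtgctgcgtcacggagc
Bag3: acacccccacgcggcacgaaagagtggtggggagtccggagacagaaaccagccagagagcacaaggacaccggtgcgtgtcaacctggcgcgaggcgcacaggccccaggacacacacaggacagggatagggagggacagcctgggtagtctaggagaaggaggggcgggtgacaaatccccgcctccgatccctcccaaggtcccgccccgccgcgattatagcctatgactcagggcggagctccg
Dnaja1: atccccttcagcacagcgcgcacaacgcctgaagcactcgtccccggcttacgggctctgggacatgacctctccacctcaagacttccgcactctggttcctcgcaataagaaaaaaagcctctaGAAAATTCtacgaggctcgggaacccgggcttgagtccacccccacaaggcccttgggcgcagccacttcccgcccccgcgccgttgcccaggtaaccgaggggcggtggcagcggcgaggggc
Dnajb6: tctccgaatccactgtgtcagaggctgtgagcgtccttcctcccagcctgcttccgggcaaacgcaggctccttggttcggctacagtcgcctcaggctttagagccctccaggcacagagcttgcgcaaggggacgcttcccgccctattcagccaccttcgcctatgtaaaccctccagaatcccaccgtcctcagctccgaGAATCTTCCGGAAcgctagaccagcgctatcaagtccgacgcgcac
By this search 2 of 10 members held a match before the first start, Dnaja1 at 124 bases and Dnajb6 at 46 and 41 bases before it, while 13.0% of 27025 genes did. A gene with more annotated starts had more windows searched, and the 27025 genes were not limited to those tested. Counting every annotated start, 4 of 10 members held one, against 14.5% of genes. The additional 2 were Dnajb4, 14 bases before its second start, and Dnaja4, 90 and 52 bases before its second start. The windows of Dnajb1, Bag3, Bag1, Chordc1, Stip1 and Ahsa1 held no match, which says only that these letters are not in these windows.

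Dnajb1 differed in each strain between 6 h and 0 h, and the 3 mice at 6 h lay above the 3 at 0 h in all 4 strains. Its MAS5 signal in SJL was 307, 333 and 342 at 0 h, 1537, 1591 and 7445 at 3 h, and 5058, 10559.9 and 10815 at 6 h. In SMJ it was 687, 908 and 2013 at 0 h, 3125, 3447 and 3470.0 at 3 h, and 10170.3, 10788 and 11304 at 6 h. The 6 h mice of these strains reached a similar level, except for SJL48 at 5058, while at 0 h SJL was low in all 3 mice and SMJ56 stood at 2013, well above the other SMJ mice. In DBA the signal was 354, 404 and 487 at 0 h, 1563, 1706 and 2037 at 3 h, and 3128, 6462 and 7220.0 at 6 h. In C57 it was 356, 395 and 449.9 at 0 h, 794, 963 and 1198 at 3 h, and 797, 945 and 1603 at 6 h. The C57 mice at 6 h overlapped those at 3 h and lay below every 6 h mouse of the other strains. On the log2 scale SJL rose by 4.66 ± 0.44 at 6 h (25.3-fold, limma adjusted p = 6.66e-08), SMJ by 3.31 ± 0.44 (5.62e-06), DBA by 3.67 ± 0.44 (1.87e-06) and C57 by 1.41 ± 0.44 (0.038). The C57 call was lost without any 1 of C57180, C57181, C57182, C57233 and C57236 (adjusted p up to 0.175, without C57233), with no filter on low signals (0.0526), and with the mean of both probe sets (0.95, adjusted p = 0.195). The second Dnajb1 probe set gave 6 h changes of 4.73 ± 0.45 in SJL, 3.46 ± 0.45 in SMJ and 3.55 ± 0.45 in DBA, close to the first, but 0.50 ± 0.45 in C57 (adjusted p = 0.567).

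At 3 h, Dnajb1 had risen by 3.00 ± 0.44 in SJL (adjusted p = 4.73e-05), a value set in part by SJL42 at 7445: without that mouse it was 2.25, still past the threshold (0.0002). It had risen by 2.09 ± 0.44 in DBA (adjusted p = 0.00767, and 0.0551 without DBA113). The changes of 1.63 ± 0.44 in SMJ (0.159) and 1.28 ± 0.44 in C57 (0.393) did not pass, although every mouse at 3 h lay above every one at 0 h in both strains. In SMJ the change passed once SMJ56 (2.08, adjusted p = 0.0264) or SJL42 (0.0237) was left out. Ordered by mean log2 signal over the 12 groups, Dnajb1 was highest in SMJ, SJL and DBA at 6 h, then in the same order of strains at 3 h, and lowest in DBA, C57 and SJL at 0 h. SMJ at 0 h and C57 at 6 h and 3 h lay between. Of the 11 steps between neighbours in that order, only that from C57 at 3 h to DBA at 0 h (1.23 on the log2 scale) was larger than 2 standard errors of a difference (0.44 for 1).

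**Figure D1:**
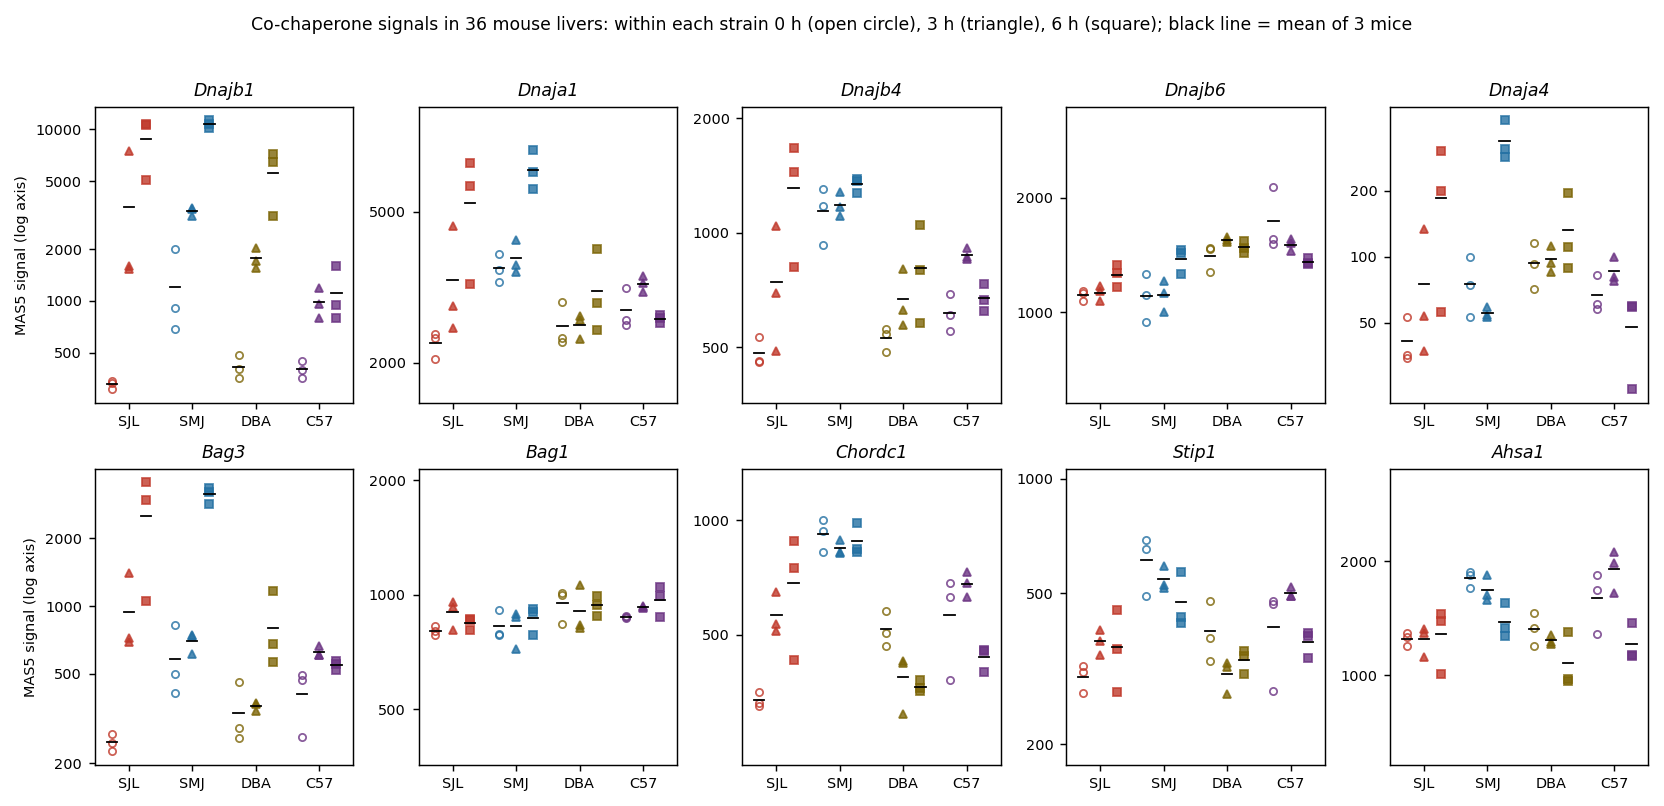
MAS5 signal (log axis) of each co-chaperone in each of 36 mouse livers, by strain along the x axis, with open circles for 0 h, triangles for 3 h, squares for 6 h and a black line for the mean of 3 mice. Dnajb1 spreads over the widest range, from 307 to 11304, and Dnajb1 and Bag3 climb least in C57 at 6 h, while Bag1 stays between 720.3 and 1061 throughout.

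Bag3 was also higher at 6 h than at 0 h in SJL, SMJ and DBA. Its signal in SJL was 225.9, 246 and 271 at 0 h, 696, 722 and 1403 at 3 h, and 1051, 2979 and 3550.1 at 6 h. In SMJ it was 412, 501 and 827 at 0 h, 610.1, 735 and 745 at 3 h, and 2854, 3225 and 3369 at 6 h. At 6 h 5 of these 6 mice lay between 2854 and 3550.1, and SJL48 was at 1051. In DBA the signal was 259.7, 288 and 460.1 at 0 h, 340.0, 367 and 371 at 3 h, and 562, 678 and 1164 at 6 h, and in C57 it was 263, 468 and 493 at 0 h, 605, 608 and 664 at 3 h, and 522, 555 and 569 at 6 h. The 3 C57 mice at 6 h lay just above those at 0 h, of which C57182 at 263 was the lowest. The 6 h log2 change was 3.16 ± 0.35 in SJL (limma adjusted p = 7.43e-07), 2.50 ± 0.35 in SMJ (1.18e-05) and 1.22 ± 0.35 in DBA (0.0203). The DBA call ended without DBA113 (0.0797), DBA115 (0.102) or DBA168 (0.146). In C57 the change was 0.48 ± 0.35 with a 95% interval of -0.24 to 1.19 and did not pass (adjusted p = 0.44). At 3 h Bag3 had risen in SJL by 1.84 ± 0.35 (adjusted p = 0.000919). The 3 h changes of 0.32 ± 0.35 in SMJ, 0.14 ± 0.35 in DBA and 0.67 ± 0.35 in C57 did not pass (adjusted p from 0.681 to 0.947). In the order of its 12 group means, 1 of 11 steps exceeded 2 standard errors of a difference, that from SJL at 6 h to SJL at 3 h (1.32, with a standard error of 0.35). SMJ at 6 h was highest and SJL at 0 h lowest.

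**Figure D2:**
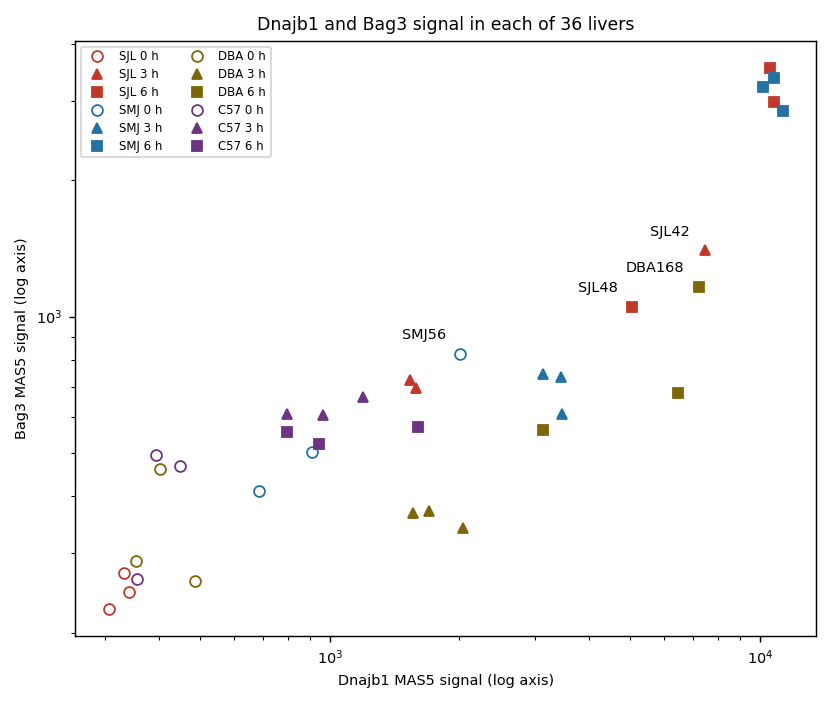
Dnajb1 signal (x axis, log) against Bag3 signal (y axis, log), 1 point per liver, with colour for strain and shape for time. The SJL and SMJ livers at 6 h fill the upper right corner except for SJL48, and SJL42, DBA168 and SMJ56 lie high within their own groups on both axes.

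The other HSP40 genes had smaller changes than Dnajb1. Dnaja4 was dim, and in SJL its signal was 34.6, 35.7 and 53.3 at 0 h, 37.1, 53.9 and 133 at 3 h, and 55.9, 199 and 302 at 6 h. In SMJ it was 52.8, 74.2 and 99.1 at 0 h, 52.8, 54.4 and 59 at 3 h, and 284, 311 and 418 at 6 h. The 6 h mice lay above the 0 h mice in both strains, with a wide gap in SMJ and with SJL48 at 55.9 just over SJL2 at 53.3. The 6 h log2 change was 2.15 ± 0.45 in SMJ (limma adjusted p = 0.000983) and 1.83 ± 0.45 in SJL (0.0103). The SJL call was lost without SJL44 (0.0544) or SJL45 (0.0990), and the value was 2.52 without SJL48. In DBA the signals were 88.5, 111 and 195 at 6 h, against 71, 92.9 and 116 at 0 h, and in C57 24.9, 59 and 59.6 at 6 h, against 57.8, 60.7 and 82.4 at 0 h. These groups overlapped, and changes of 0.43 ± 0.45 and -0.54 ± 0.45 did not pass. The other 2 Dnaja4 probe sets gave 1.15 ± 0.27 and 1.17 ± 0.31 as the mean of the strains, against 0.97 ± 0.22 for the one used.

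Dnaja1 had signals of 3235, 5852 and 6695 at 6 h, against 2049, 2329 and 2379 at 0 h, in SJL, and of 5724, 6364 and 7243 at 6 h, against 3266, 3501 and 3873 at 0 h, in SMJ. Neither pair of groups overlapped. It rose by 1.16 ± 0.21 in SJL (adjusted p = 0.000781) and by 0.86 ± 0.21 in SMJ (0.00471, but 0.0899 after quantile normalization). In DBA it had 2436, 2879.9 and 3977 at 6 h, against 2272, 2323 and 2889 at 0 h, and in C57 2548, 2630.0 and 2669 at 6 h, against 2519.9, 2589.9 and 3152 at 0 h, with overlap in both strains. Its 3 probe sets agreed in size, at 0.56 ± 0.11, 0.49 ± 0.10 and 0.41 ± 0.12 as the mean of the strains. Dnajb4 had 815, 1442 and 1676 at 6 h, against 458, 460.1 and 533 at 0 h, in SJL, where it rose by 1.37 ± 0.23 (adjusted p = 0.0003). In SMJ it had 1273, 1371 and 1383 at 6 h, against 930.5, 1177 and 1307 at 0 h, with overlap and a change of 0.25 ± 0.23 that did not pass (adjusted p = 0.505). In DBA the change was 0.57 ± 0.23 (0.112, and 0.0373 without DBA169), and in C57 0.13 ± 0.23 (0.79). A second Dnajb4 probe set gave 0.69 ± 0.14 as the mean of the strains, and another, dim one gave -0.37 ± 0.16 (adjusted p = 0.0741).

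Dnajb6, an HSP40 that keeps aggregation-prone proteins soluble, changed little by the probe set used, and its 4 probe sets did not move alike. The one used rose in SMJ at 6 h by 0.33 ± 0.11 (limma adjusted p = 0.0369), with signals of 1259.7, 1431 and 1462 at 6 h, against 942, 1109 and 1261 at 0 h, which overlapped by SMJ103 and SMJ56. The call was lost without SMJ57 (0.234), SMJ58 (0.0785), SMJ101 (0.109) or SMJ102 (0.124), without a filter (0.0601) and with the mean of its 4 probe sets (0.25, adjusted p = 0.102). In C57 the signals were 1342, 1346 and 1386 at 6 h, against 1517, 1564 and 2135 at 0 h. All 3 mice at 6 h lay below all 3 at 0 h, and the change of -0.34 ± 0.11 did not pass (adjusted p = 0.0568, but 0.0325 to 0.0465 without SMJ56, SMJ57, C57180 or C57181). Another Dnajb6 probe set was higher as the mean of the strains, by 0.19 ± 0.05 at 3 h (adjusted p = 0.0254 over all probe sets) and 0.14 ± 0.05 at 6 h (0.0415). It was also higher in SJL at 3 h (0.37 ± 0.10, 0.0251) and in DBA at 6 h (0.44 ± 0.10, 0.00641), and in C57 at 6 h it stood at 0.22 ± 0.10 (0.209), opposite in sign to the one used. In SJL at 6 h it stood at -0.21 ± 0.10 (0.275). Neither remaining Dnajb6 probe set passed as the mean of the strains. They gave 0.0006 ± 0.08 and -0.11 ± 0.14 at 3 h, and 0.07 ± 0.08 and -0.09 ± 0.14 at 6 h. Bag1, which exchanges the nucleotide of HSP70 and binds the proteasome, was the flattest member: its group means lay between 805 in SJL at 0 h and 971 in C57 at 6 h, and its change passed in no strain at either time, the values running from -0.08 in DBA at 3 h to 0.15 in SJL at 3 h.

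The co-chaperones of HSP90 went different ways. Chordc1, which binds HSP90 through its CHORD domains, had signals in SJL of 325, 330.4 and 354 at 0 h, 512, 532 and 646 at 3 h, and 428, 746 and 881 at 6 h. Every treated SJL mouse lay above every one at 0 h. It rose in SJL by 0.96 ± 0.20 at 6 h (limma adjusted p = 0.00258) and by 0.73 ± 0.20 at 3 h (0.0174), the 3 h call being lost without SJL1 (0.0566), SJL2 (0.0571) or SJL42 (0.0712). Signals in SMJ were 822, 936 and 1000.3 at 0 h, 818, 823 and 886 at 3 h, and 825, 841 and 983 at 6 h, with overlap between all 3 times. In DBA they were 466, 505 and 577 at 0 h, 309.7, 421 and 427 at 3 h, and 355, 361 and 379 at 6 h, and here the treated mice lay below those at 0 h. The DBA changes of -0.43 ± 0.20 at 3 h and -0.49 ± 0.20 at 6 h did not pass (adjusted p = 0.442 and 0.111, the 6 h one 0.0459 without SJL48). In C57 the signals were 379, 629 and 685 at 0 h, 628, 684 and 729 at 3 h, and 399, 452 and 457 at 6 h, with C57182 at 379 far below its 2 group mates.

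Stip1 passed in no strain. Its 6 h changes were -0.37 ± 0.18 in SMJ, -0.24 ± 0.18 in DBA, -0.09 ± 0.18 in C57 and 0.23 ± 0.18 in SJL (limma adjusted p from 0.17 to 0.815). In SMJ it averaged 473 ± 84 at 6 h, against 612 ± 105 at 0 h (SD, n = 3 each), and in SJL 362 ± 88.4 at 6 h, against 302 ± 25.3 at 0 h. Ahsa1 averaged 1384 ± 145 in SMJ at 6 h, against 1801 ± 93.7 at 0 h. DBA had 1080.4 ± 189 at 6 h, against 1328 ± 132 at 0 h, and C57 had 1210.5 ± 139.5 at 6 h, against 1601 ± 282 at 0 h. Its changes were -0.38 ± 0.15 for SMJ, -0.31 ± 0.15 for DBA, -0.39 ± 0.15 for C57 and 0.02 ± 0.15 for SJL. None of the 4 passed alone (adjusted p from 0.0635 to 0.961), although all SMJ mice at 6 h lay below all at 0 h. The SMJ value passed without SJL48 (0.0435) or C57182 (0.0458), and the C57 value without C57182 (-0.54, 0.0287). These values are of the brighter probe set. The dimmer one gave 0.37 ± 0.29 in SMJ, 0.29 ± 0.29 in C57, -0.01 ± 0.29 in DBA and -0.23 ± 0.29 in SJL at 6 h. None of those passed (adjusted p from 0.413 to 0.992 over all probe sets).

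Counted by strain, the members past the test at 6 h were 6 in SJL (Dnajb1, Bag3, Dnaja4, Dnajb4, Dnaja1 and Chordc1), 5 in SMJ (Dnajb1, Bag3, Dnaja4, Dnaja1 and Dnajb6), 2 in DBA (Dnajb1 and Bag3) and 1 in C57 (Dnajb1), all of them higher. Among all genes, SJL had 3.71% higher and 3.31% lower at 6 h, SMJ had 8.58% and 12.3%, DBA had 4.81% and 7.57%, and C57 had 4.24% and 5.79%. In C57 the 1 member in 10 came closest to the background. At 3 h SJL had 3 members higher, where 4.48% of all genes were higher and 5.45% lower, and DBA had 1 (1.09% and 0.415%). SMJ had 0 (0.165% and 0.00715%), and so had C57 (0.200% and 0.0787%). By limma, 1 member in SMJ and 2 in C57 had an unadjusted p below the threshold at 3 h, as did 1139 of 13981 genes in SMJ and 1050 in C57. The median 6 h change of the 10 members was 1.06 in SJL (-0.08 for all genes tested), 0.29 in SMJ (-0.04) and 0.19 in DBA (-0.10), while C57 had -0.08 (0.02 for all genes tested). At 6 h all treated mice lay above all 0 h mice for 7 members in SJL and below for 0 (11.1% and 17.4% of all genes). SMJ had 4 above and 1 below (15.1% and 20.0%), DBA had 3 and 1 (11.4% and 20.7%), and C57 had 2 and 1 (14.9% and 13.9%). At 3 h the same count gave 5 above and 0 below in SJL (9.66% and 13.8%) and 5 and 0 in C57 (6.79% and 8.8%). SMJ had 1 and 0 at 3 h (7.39% and 6.88%), and DBA had 3 and 2 (7.92% and 11.8%).

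**Figure D3:**
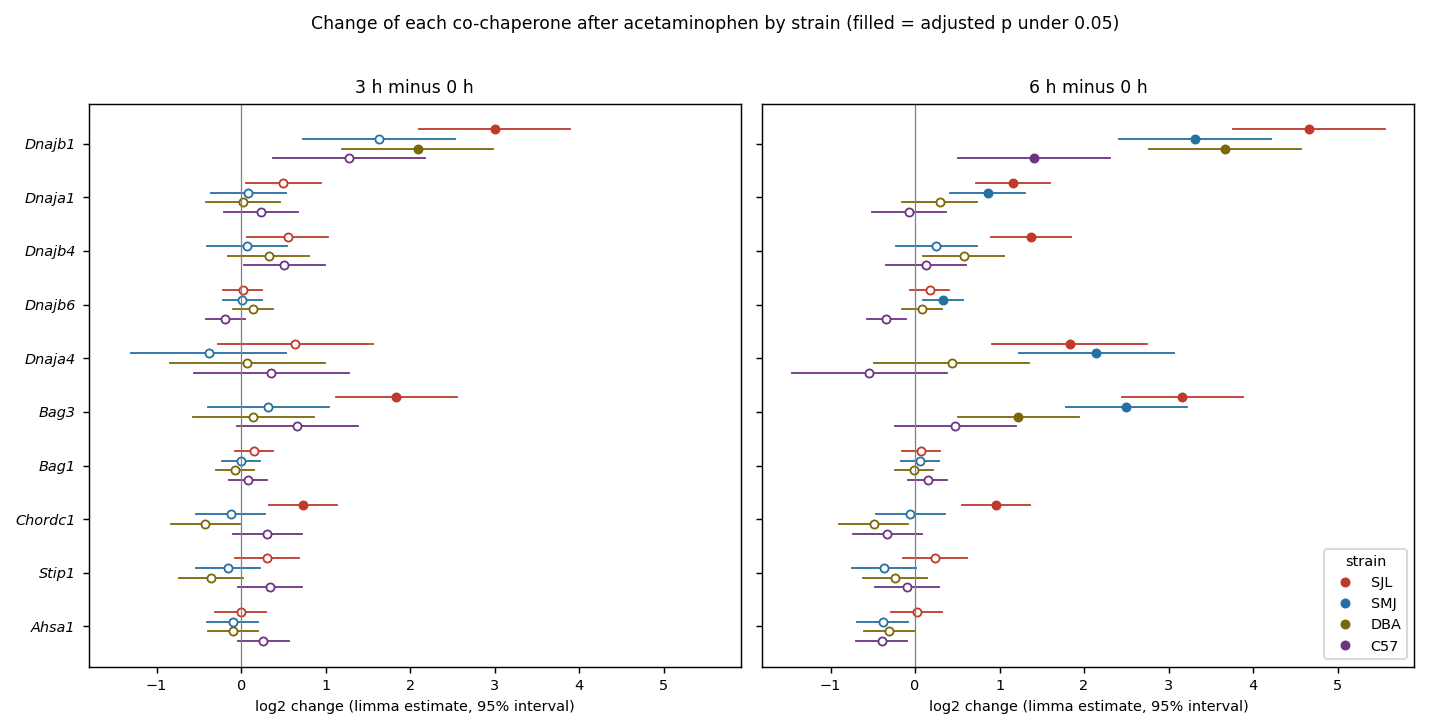
Log2 change of each co-chaperone in each strain at 3 h (left) and 6 h (right) relative to 0 h, with the limma estimate as a point and its 95% interval as a bar. Filled points have an adjusted p under 0.05: at 6 h SJL has 6, SMJ 5, DBA 2 and C57 1.

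Before the dose, Chordc1 was lower in every SJL mouse than in any other, and Stip1 and Dnajb6 were lower in SJL than in the average of the other strains. Relative to the average of SMJ, DBA and C57, all 10 members had an estimate below 0 in SJL, and 3 passed the test, where 6.27% of all genes were higher and 5.81% lower. Chordc1 was lower in SJL by 0.91 ± 0.16 on the log2 scale (limma adjusted p = 0.000366), with signals of 325, 330.4 and 354 in SJL, against 379, 629 and 685 in C57, 466, 505 and 577 in DBA, and 822, 936 and 1000.3 in SMJ. The SJL mice lay below all 9 others. Stip1 had 273, 311 and 321 in SJL, against 332, 382 and 478 in DBA, 493, 653 and 691 in SMJ, and 277, 469 and 476 in C57, where C57182 fell among the SJL mice. Its difference was -0.59 ± 0.15 (adjusted p = 0.01, and 0.0762 without SJL2). Dnajb6 had 1072, 1122 and 1138 in SJL, against 1278, 1465 and 1477 in DBA, 942, 1109 and 1261 in SMJ and 1517, 1564 and 2135 in C57, so that SMJ was as low as SJL. It differed by -0.32 ± 0.09 (0.0242), which was lost without SJL1 (0.0797), SJL2 (0.0663) or SJL4 (0.114) and with the mean of its probe sets (-0.13, 0.402). The estimates for Dnajb1 and Bag3 were -0.78 ± 0.36 and -0.74 ± 0.28 and did not pass (adjusted p = 0.17 and 0.0922); Bag3 did without SJL48 (0.0348). Dnajb4 (-0.56 ± 0.19, adjusted p = 0.051) and Ahsa1 (-0.32 ± 0.12, 0.0843) also passed once another mouse was left out, any 1 of 8 for Dnajb4 (down to 0.0247) and C57182 for Ahsa1 (0.0364). The median over the members was -0.58, against 0.04 for all genes tested. In the F test over all 4 strains at 0 h, 6 members differed (Dnajb1, Dnajb4, Dnajb6, Chordc1, Stip1 and Ahsa1), where 26.1% of all genes did. Dnajb1 was lost there without SMJ56 (adjusted p = 0.163), and Ahsa1 without SJL4 (0.0584), SMJ57 (0.0651) or SMJ58 (0.0726) and with the mean of its probe sets (F = 2.40, 0.210). Dnaja1 was added without SJL42 (0.0492) or SJL48 (0.0328), and Bag3 without SJL48 (0.0180), DBA114 (0.0474) or C57182 (0.0454).

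The size of the response was then compared between strains. At 6 h the F test found a difference between strains in the change of 6 members, Bag3 (F = 12.1, adjusted p = 0.00459), Chordc1 (10.7, 0.00722), Dnajb1 (9.69, 0.0107), Dnaja4 (7.88, 0.0234), Dnaja1 (6.67, 0.04) and Dnajb6 (6.38, 0.0458), where 5.25% of all genes passed. Bag3, Chordc1 and Dnajb1 passed whichever array was left out. Dnaja4 was lost without C57182 (0.0564) or C57237 (0.0573), Dnaja1 without any 1 of 17 arrays (up to 0.0862), and Dnajb6 without any 1 of 27 (up to 0.136). Dnaja1 was also lost with no filter (0.0597) and after quantile normalization (0.0514), and Dnajb6 with no filter (0.0792) and with the mean of its 4 probe sets (F = 2.21, 0.358). Dnajb4 (0.059) passed without any 1 of 5 arrays, most clearly without SJL48 (0.00844). At 3 h 0 members passed (1.97% of all genes), and 3 did by limma at an unadjusted p below the threshold (Bag3, Chordc1 and Stip1), as did 1930 of 13981 genes. Chordc1 passed without SJL48 (0.0183), C57181 (0.0445) or C57182 (0.0423).

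The 6 h change in C57 lay below that of the other strains for several members. As a signed value, it was below the mean change of SJL, SMJ and DBA for 5 members, where 2.47% of all genes were lower. For 0 members was it above (2.19%). This contrast was chosen with earlier results of these data known. For Dnajb6 the C57 estimate was a fall (-0.34 ± 0.11) and not a smaller rise. Dnaja4 (-0.54 ± 0.45) and Dnaja1 (-0.07 ± 0.21) also had C57 estimates below 0, and none of these passed in C57 alone. The difference in log2 change was -2.47 ± 0.50 for Dnajb1 (limma adjusted p = 0.00489), -1.82 ± 0.40 for Bag3 (0.00926), -2.01 ± 0.51 for Dnaja4 (0.0236), -0.53 ± 0.13 for Dnajb6 (0.0188) and -0.84 ± 0.25 for Dnaja1 (0.0493). For Dnajb1 and Bag3 it passed whichever array was left out. It was lost for Dnaja4 without C57182 (0.0819) or C57237 (0.0874), for Dnajb6 without C57182 (0.0997) or C57236 (0.0587) and with the mean of its 4 probe sets (-0.08, 0.820), and for Dnaja1 without any 1 of 28 arrays (up to 0.121), with an offset of 1 (0.0503), with no filter (0.0719) and after quantile normalization (0.0890). The actin ratio moved in the same pattern, being lower at 6 h than at 0 h in the other 3 strains and not in C57. Of 8 endothelial markers 6 were higher in C57 at 6 h (4.24% of all genes were), 1 in SJL (3.71%), 2 in SMJ (8.58%) and 3 in DBA (4.81%). Their summed signal in C57 was 4140.4 to 4611 at 6 h, against 2594 to 3538 at 0 h, and in SJL 2997 to 3349.6 at 6 h, against 2927 to 3204 at 0 h. The part of either in the result was not tested.

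As a signed value, the change in SJL was above the mean change of SMJ, DBA and C57 for 2 members at each time. At 6 h Chordc1 differed by 1.25 ± 0.23 (limma adjusted p = 0.0147) and Bag3 by 1.76 ± 0.40 (0.0468), where 0.315% of all genes were higher and 0.0787% lower. At 3 h Bag3 differed by 1.46 ± 0.40 (0.0337) and Chordc1 by 0.81 ± 0.23 (0.0386), where 2.21% were higher and 2.40% lower. At 6 h 8 of the 10 members had an unadjusted p below the threshold, all with a positive difference, as did 1795 of 13981 genes in either direction. Dnajb1 stood at 1.86 ± 0.50 (adjusted p = 0.0983) and Dnajb4 at 1.05 ± 0.27 (0.0751). A positive difference was not always a larger rise in SJL. Ahsa1 changed by 0.02 in SJL, against -0.38 in SMJ, -0.31 in DBA and -0.39 in C57. Chordc1 changed by 0.96 in SJL, against -0.06, -0.49 and -0.33 in the same order. Stip1 changed by 0.23 in SJL, against -0.37, -0.24 and -0.09. The calls of Chordc1 and Bag3 depended on single arrays. At 6 h Chordc1 was lost without SJL1 (0.0575), SJL2 (0.0593), SJL44 (0.0545) or SJL45 (0.0819), and Bag3 without any 1 of 28 arrays (up to 0.214). At 3 h Bag3 was lost without SJL1 (0.0605), SJL2 (0.0907), SJL4 (0.0750) or SJL42 (0.105), and Chordc1 without any 1 of 12 arrays (up to 0.0970). Without SJL48, whose levels at 6 h were the lowest of its group for Dnajb1, Bag3, Chordc1, Dnaja1, Dnajb4 and Dnaja4, Dnajb4 (0.0144) and Dnaja1 (0.0190) passed too, and without SJL42 so did Dnajb1 (0.0259) and Dnajb4 (0.0440). Dnajb4 also passed without SJL39 (0.0348). SJL had a lower mean of Dnajb1 than SMJ at both times: it averaged 8811 ± 3253 in SJL and 10754 ± 568 in SMJ at 6 h, against 327 ± 18.6 and 1202 ± 710.3 at 0 h (SD, n = 3 each).

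**Figure D4:**
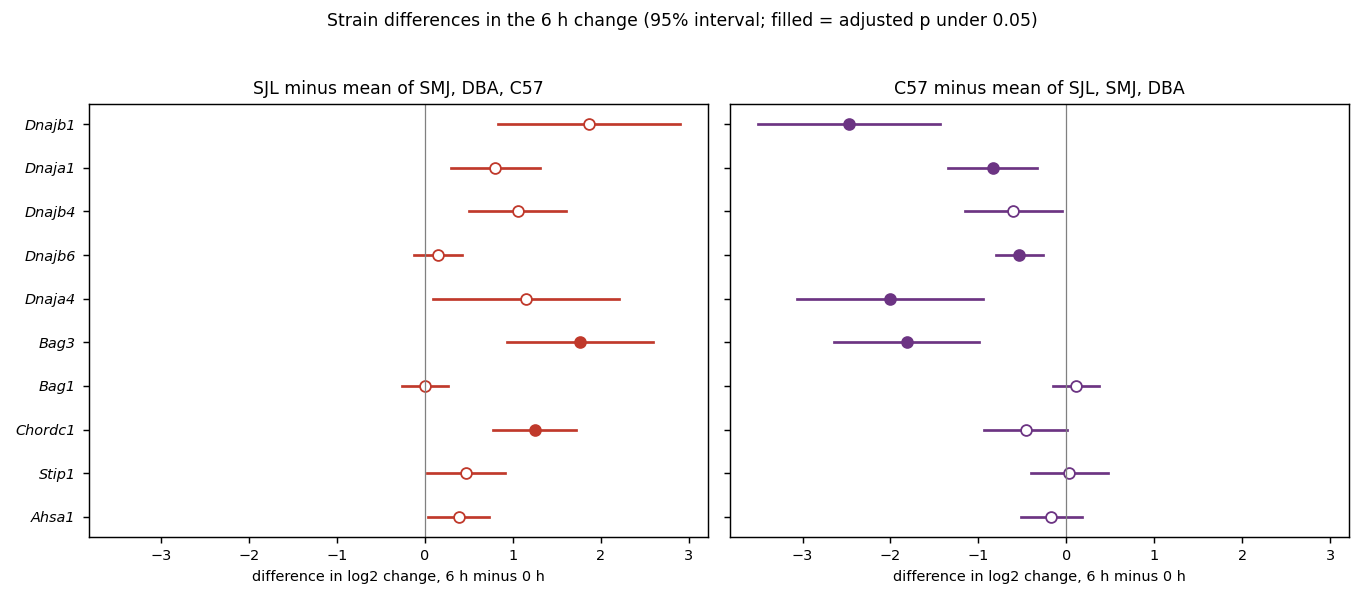
Difference in the 6 h log2 change between SJL and the mean of SMJ, DBA and C57 (left) and between C57 and the mean of SJL, SMJ and DBA (right), for each co-chaperone, with 95% intervals. Filled points have an adjusted p under 0.05: Bag3 and Chordc1 on the left, and Dnajb1, Dnaja1, Dnajb6, Dnaja4 and Bag3 on the right, where they lie below 0.

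Likeness among the members was described over the 12 group means of log2 signal, which share the same 36 arrays. Dnaja1 and Bag3 had the highest correlation (Pearson r = 0.949), followed by Dnaja1 and Dnajb4 (0.910), Chordc1 and Stip1 (0.897) and Dnajb1 and Bag3 (0.889). Stip1 and Ahsa1 stood at 0.843. Bag1 and Chordc1 had the lowest value, -0.35. Other genes tested were then ranked, leaving out those with provisional symbols such as Rik or Gm names. Those most like Dnajb1 were the autophagy receptor Sqstm1 (0.980), the RNA-binding protein Zfp36l1 (0.973) and the heme-sensing repressor Bach1 (0.967). Those most like Bag3 were the oxygenase Jmjd6 (0.950), the thioredoxin reductase Txnrd1 (0.947) and the splicing factor Hnrnph1 (0.946). Those most like Stip1 were Hspa4l, an HSP110 chaperone (0.975), Rexo4 (0.934) and Hikeshi, the nuclear import carrier of HSP70 (0.923).

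The partners of the co-chaperones were taken as 6 lists of 81 genes, chosen with earlier results of these data known. At 6 h, as the mean of the strains, 12.5% of all genes tested were higher and 20.1% lower, with a median change of -0.05. Of 10 HSP70 and HSP110 chaperones and exchange factors tested, 5 were higher and 0 lower, with a median change of 0.29. Hspa1a rose by 4.33 ± 0.45 and Hspa1b by 1.69 ± 0.30 (limma adjusted p = 2.77e-08 and 7.74e-05), but these heat-inducible HSP70 genes are near-identical copies and their probe sets may not tell them apart. The HSP110 exchange factors Hsph1 and Hspa4 rose by 0.97 ± 0.23 (0.00147) and 0.34 ± 0.07 (0.000614), and the fifth gene, named after its value was seen, was the constitutive Hspa8 (0.43 ± 0.11, 0.00318). Of 6 small heat shock proteins and BAG3 partners tested, 3 were higher and 0 lower (median 0.44): Hspb8, the small heat shock protein that BAG3 binds, by 1.53 ± 0.13 (4.58e-10), Sqstm1 by 1.08 ± 0.06 (9.26e-13) and Hspb1 by 0.89 ± 0.23 (0.00316). Hspb2 stood at -0.50 ± 0.24 (0.116). Of 12 HSP90 chaperones and co-chaperones, 2 were higher and 2 lower (median -0.03). Hsp90aa1, the inducible cytosolic HSP90, rose by 0.93 ± 0.11 (1.97e-07) and Tomm34 by 0.31 ± 0.07 (0.00165), while Cdc37l1 changed by -0.35 ± 0.07 (0.000472) and St13, which binds HSP70, by -0.19 ± 0.05 (0.00685).

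Among the rest of the HSP40 family, as among all genes tested, more genes were lower than higher. Of 36 other DNAJ genes tested, 2 were higher and 15 lower at 6 h, with a median of -0.15. Of all genes tested, 12.5% were higher and 20.1% lower, with a median of -0.05. Dnajc28 (-0.66 ± 0.11, adjusted p = 3.59e-05), Dnajc7 (-0.34 ± 0.06, 4.79e-05), the endoplasmic reticulum reductase Dnajc10 (-0.34 ± 0.06, 6.04e-05) and the endosomal Dnajc13 (-0.34 ± 0.07, 0.000164) were all lower. The 2 that rose, named after their values were seen, were Dnajb9 (0.39 ± 0.13, 0.02) and Dnajc5 (0.38 ± 0.08, 0.000528). Of the 4 other BAG genes, Bag2 rose by 0.62 ± 0.12 (0.000253), Bag4 was lower at -0.96 ± 0.10 (4.18e-08), and Bag6 (0.18 ± 0.08) and Bag5 (-0.03 ± 0.09) did not pass. Neither of 2 heat shock factors tested passed, and 0 had an unadjusted p below the threshold by limma (5679 of 13981 genes did): Hsf2 stood at 0.10 ± 0.19 and Hsf4 at -0.09 ± 0.11. In C57 alone, 0 of the 10 HSP70 and HSP110 genes passed at 6 h (1 at an unadjusted p, with 3317 of 13981 genes). SJL had 5, SMJ 3 and DBA 2. Of all genes tested, 4.24% were higher and 5.79% lower in C57, and 3.71% and 3.31% in SJL. SMJ had 8.58% and 12.3%, and DBA 4.81% and 7.57%. In C57 Hspa1a stood at 1.78 ± 0.89 (0.223) and Hspa1b at -1.62 ± 0.60 (0.0863). In SJL they rose by 7.06 ± 0.89 and 3.99 ± 0.60. The C57 change, as a signed value, was below that of the other strains for Hspa1b (-4.42 ± 0.69, 0.000491), Hsp90aa1 (-1.57 ± 0.25, 0.00059) and Hspb8 (-1.27 ± 0.29, 0.0115). For Hspa1a the difference (-3.39 ± 1.03) did not pass (0.056). At 0 h Hsp90aa1 (-1.12 ± 0.18, 0.0001), Hspb1 (-2.28 ± 0.37, 0.000145) and Hsph1 (-1.40 ± 0.37, 0.0123) were lower in SJL than in the 3 sensitive strains, as Chordc1 and Stip1 were.

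**Figure D5:**
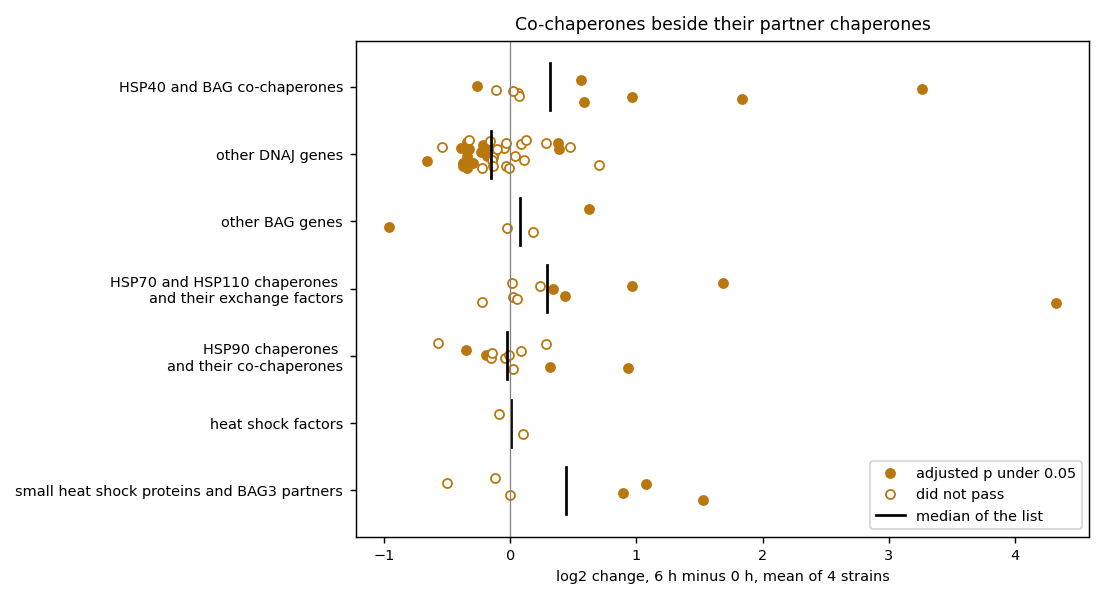
Log2 change at 6 h relative to 0 h, as the mean of 4 strains, for each gene of the co-chaperones and of 6 partner lists, with filled points for an adjusted p under 0.05 and a bar for the median of the list. The co-chaperones have a median of 0.31 and reach 3.26 (Dnajb1), while 15 of 36 other DNAJ genes are lower and filled (20.1% of all genes tested were lower).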

How the data were processed

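Liver RNA of 36 mice was read on 1 Affymetrix array each, and the deposited intensity values are MAS5 signals on a linear scale, per the submitters' processing notes; the MAS5 version and further settings were not given in the sources used here. Their 2% trimmed mean was 150 on every array, so no further scaling was applied. Of 45101 probe sets, 34945 mapped to 1 gene symbol, 932 to several and 9160 to none in the platform annotation used here. Each of 18193 genes was represented by its probe set with the highest mean log2 signal. Probe sets with names ending in _s_at or _x_at were used only where a gene had no other. Levels of different probe sets were not compared. Signals were taken as log2(signal + 2.77), the offset being the 10th percentile of all values, so fold changes of dim genes are understated. The 13981 genes above the median of all signals (30.8) on at least 3 arrays were tested with limma 3.58.1 in R 4.3.3, in a single fit of 12 group means with 24 residual degrees of freedom. Calls used a Benjamini-Hochberg adjusted p under 0.05 over all genes tested, and intervals are unadjusted 95% limma intervals. The procedure was tested on simulated data.

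The 10 members, the gene lists, the markers and the contrast of C57 with the other strains were chosen with earlier results of these data known. The genes named were the members, up to 4 tested genes per list with the smallest p for the mean of the strains at 6 h, and the 3 most like Dnajb1, Bag3 and Stip1. The last were sought among genes without provisional symbols. Genes without a probe set of their own symbol, among them Hsp90ab1, Ptges3, Hsf1, Ly6g and Spp1, were not analysed here. Upstream sequences are RefSeq's (GRCm38.p6). Mice are separate samples per the labels, and precision is limited by how many there were. Alternatives changed the offset, the filter, the scaling, the probe sets, the variance model and the arrays used.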

Additional observations from a re-analysis of the deposited data

Results flagged for a closer look

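Effects that differed between strains, by a test of the difference itself, are listed for a second look. In the 6 h change, the moderated F test over the 4 strains gave 12.1 for Bag3, 10.7 for Chordc1, 9.69 for Dnajb1, 7.88 for Dnaja4, 6.67 for Dnaja1 and 6.38 for Dnajb6 (limma adjusted p from 0.00459 for Bag3 to 0.0458 for Dnajb6). With the mean of its 4 probe sets, Dnajb6 had 2.21 (adjusted p = 0.358).

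The change in SJL exceeded the mean change of SMJ, DBA and C57 for Bag3, by 1.46 ± 0.40 at 3 h and 1.76 ± 0.40 at 6 h on the log2 scale (SE). For Chordc1 it did so by 0.81 ± 0.23 at 3 h and 1.25 ± 0.23 at 6 h. Adjusted p lay between 0.0147 and 0.0468 for these 4 values, and each was lost when any of several single arrays was left out. At 6 h the mean signal of both genes was lower in SJL than in SMJ. The part of the 0 h levels in these values was not tested.

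The 6 h change in C57 was below the mean change of SJL, SMJ and DBA by limma for Dnajb1 (-2.47 ± 0.50), Dnaja4 (-2.01 ± 0.51), Bag3 (-1.82 ± 0.40), Dnaja1 (-0.84 ± 0.25) and Dnajb6 (-0.53 ± 0.13), with adjusted p from 0.00489 for Dnajb1 to 0.0493 for Dnaja1. Among these, Dnajb1 and Bag3 passed whichever array was left out. The second Dnajb1 probe set moved less in C57 at 6 h, at 0.50 on the log2 scale against 1.41 for the one used.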

How the results depend on the processing

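Over 6480 values with 1 array left out, 6280 stayed on the same side of the threshold, 154 lost their call and 46 gained one. With 1 array left out, the number of members called ranged from 2 to 3 (3 h) and stayed at 6 (6 h) for the mean of the strains, and from 4 to 5 for 6 h against 3 h. For SJL it lay between 2 and 4 at 3 h and between 5 and 6 at 6 h, for SMJ between 0 and 1 and between 4 and 6, for DBA between 0 and 1 and between 1 and 3, and for C57 it was 0 at 3 h and between 0 and 2 at 6 h. It ranged from 1 to 5 for SJL against the other strains at 0 h, from 0 to 2 (3 h) and 0 to 4 (6 h) for the difference in change of SJL, and from 2 to 5 for that of C57. For the F tests it ranged from 0 to 1 (change at 3 h), 3 to 7 (change at 6 h) and 5 to 8 (0 h). With all probe sets tested, 4 members were called at 3 h as the mean of the strains, against 2. The additional 2 were a Dnajb6 probe set, which was higher (0.19, adjusted p = 0.0254), and a dim Dnajb4 probe set, which was lower (-0.53, 0.0386), against 0.36 for the one used. In fits to just the 6 arrays being compared, 0 were called in SJL at 3 h, 2 in SJL at 6 h, 1 in DBA at 6 h and 0 in C57 at 6 h, where fewer arrays estimated the spread. In C57 at 6 h, 0 were called with no filter on low values, 0 with the mean of all probe sets of a gene and 2 with a variance trend. For the difference in change of SJL, 1 was called with no filter at 3 h, 1 with no filter at 6 h and 1 with each array divided by its 75th percentile at 6 h. The F test of the change at 3 h called 1 with a variance trend. The cause of these shifts was not tested, except that no filter adds genes to the adjustment. The median change of all genes passed 0.1 in size in DBA at 6 h (-0.10), and only there. No paired analysis was possible because each mouse has a number of its own. With 3 mice per group, changes that missed the threshold in 1 strain were not shown to be absent.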
